A study of Sus scrofa with 41 samples.

Results

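The insulin-like growth factor (IGF) system was described here by 8 genes: the ligands IGF1 and IGF2, the receptors IGF1R and IGF2R, and the binding proteins IGFBP3, IGFBP4, IGFBP5 and IGFBP6. The genes were taken by their pig Ensembl symbol. Of the 8 genes, 6 were matched to a gene in the count files, which hold 25880 genes, of which 14857 have a symbol. IGF2 and IGFBP3 were not matched. All 6 matched genes passed the filter on low counts and were among the 11146 genes tested.

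RNA was sequenced from the psoas major muscle of 41 uncastrated male pigs, 13 Danbred Duroc and 28 Danbred Landrace, which had free access to feed and were sampled right after slaughter. The Duroc pigs were 131 to 156 days old, with an RNA integrity number (RIN) of 7 to 8.8 and a feed conversion ratio (FCR) of 1.83 to 2.18. The Landrace pigs were 147 to 166 days old, with a RIN of 6.5 to 8.3 and an FCR of 1.92 to 2.25. The methods of the study word FCR the other way round, as growth over feed, but all values are above 1, so FCR is read here as feed per gain, with a low FCR in an efficient pig. The pigs carried no treatment and no introduced allele, and each pig gave 1 library.

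IGF1 is a growth peptide made in the liver under growth hormone and also within muscle, where it acts on fibres and satellite cells. It signals through the tyrosine kinase receptor IGF1R, by way of the IRS adaptors, PI3K and AKT, towards protein synthesis. IGF2R, the cation-independent mannose 6-phosphate receptor, carries lysosomal enzymes and takes IGF2 up for degradation. The binding proteins hold the ligands in the circulation or in the matrix, and proteases such as those of the pappalysin family free the ligands again.

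In the RefSeq annotation of Sscrofa11.1, the build of the alignments, IGF1 (ENSSSCG00000000857) spans chr5:81762027-81909253 and IGF1R (ENSSSCG00000030560) spans chr1:137383623-137691038. IGF2R (ENSSSCG00000004044) lies at chr1:7369485-7472480. IGFBP4 (ENSSSCG00000017472) lies at chr12:21966524-21980043 and IGFBP5 (ENSSSCG00000025924) at chr15:118861816-118877787. IGFBP6 (ENSSSCG00000000261) spans chr5:18352884-18357225. The counts are over the exons of each gene and do not separate transcripts. Reads were counted without strand, so antisense RNA with no annotated gene of its own cannot be told apart from that of a gene. Pairs that also overlapped an annotated gene on the other strand were not counted. The sum of the 2 stranded counts exceeded the unstranded count by at most 1% in IGFBP6 and 0.102% in IGFBP5, and in none of the other 4 genes.

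The libraries held 22188911 to 25954816 counts on genes, with a median of 25243577. The muscle fibre markers ACTA1, CKM and TNNT3, the matched 3 of 8 listed, summed to 104221 to 196855 CPM per pig (CPM being the count scaled to a common library size), so muscle fibre RNA was abundant in all libraries. The adipocyte, Schwann, tendon and hepatocyte lists each had a marker at 0 in 17 to 35 pigs. Landrace replicate 22 stood apart, with tendon markers summing to 42.5 CPM against at most 0.952 CPM in the other pigs, and fibroblast markers summing to 12361 CPM against at most 4855 CPM. Landrace replicates 1 and 27 had the lowest RIN, 6.5 and 6.6.

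Levels are given as CPM after TMM scaling, and are compared between pigs and not between genes, since gene lengths were not used. IGF1 was a low transcript, with 16 to 83 counts per pig. It ran from 0.625 CPM to 3.67 CPM with a median of 1.81 CPM in the Duroc pigs, and from 0.887 to 2.74 CPM with a median of 1.64 CPM in the Landrace pigs. The mean was 1.95 ± 0.807 CPM for Duroc (SD, n = 13) against 1.65 ± 0.495 CPM for Landrace (SD, n = 28). The breeds overlapped, and the Duroc pigs held both the lowest and the highest value of the series. The 3 highest pigs, Duroc replicates 10, 6 and 5, all belonged to slaughter batch 5, and the lowest, Duroc replicate 12, to batch 4.

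The receptors differed in their spread. IGF1R had 64 to 438 counts per pig and a coefficient of variation of 39.4% over the 41 pigs. Its level ran from 3.90 to 16.3 CPM in Duroc, with a median of 5.67 CPM, and from 3.16 to 10.9 CPM in Landrace, with a median of 7.05 CPM. The 3 highest values of the series, 16.3, 13.0 and 12.6 CPM, were those of the 3 Duroc pigs of batch 4. IGF2R, with 572 to 2608 counts, had the lowest coefficient of variation of the 6 genes, 20.5%. Its level ran from 43.6 to 75.6 CPM with a median of 62.1 CPM in Duroc, and from 39.7 to 88.6 CPM with a median of 63.2 CPM in Landrace, so that the Duroc range lay within the Landrace range. Landrace replicates 27 and 1, the pigs with the lowest RIN, had the lowest IGF2R values, 39.7 and 41.3 CPM.

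The binding proteins varied more. IGFBP4, which mostly restrains IGF action until a protease cuts it, ran from 3.32 to 16.9 CPM in Duroc (median 9.12) and from 3.11 to 14.7 CPM in Landrace (median 7.22). The highest Landrace value was that of replicate 22, the library with tendon and fibroblast RNA. IGFBP5, a binding protein of matrix and differentiating muscle, had 1524 to 7568 counts per pig. It ran from 65.8 to 275 CPM in Duroc (median 101) and from 83.8 to 330 CPM in Landrace (median 137), and Landrace replicate 22 was again the highest. IGFBP6, which binds IGF2 in preference to IGF1, ran from 4.30 to 14.8 CPM in Duroc (median 10.0) and from 4.16 to 44.6 CPM in Landrace (median 11.2). Landrace replicate 3 held the value of 44.6 CPM and the next pig, Landrace replicate 6, had 25.5 CPM. In each of the 6 genes the breeds overlapped.

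**Figure D1:**
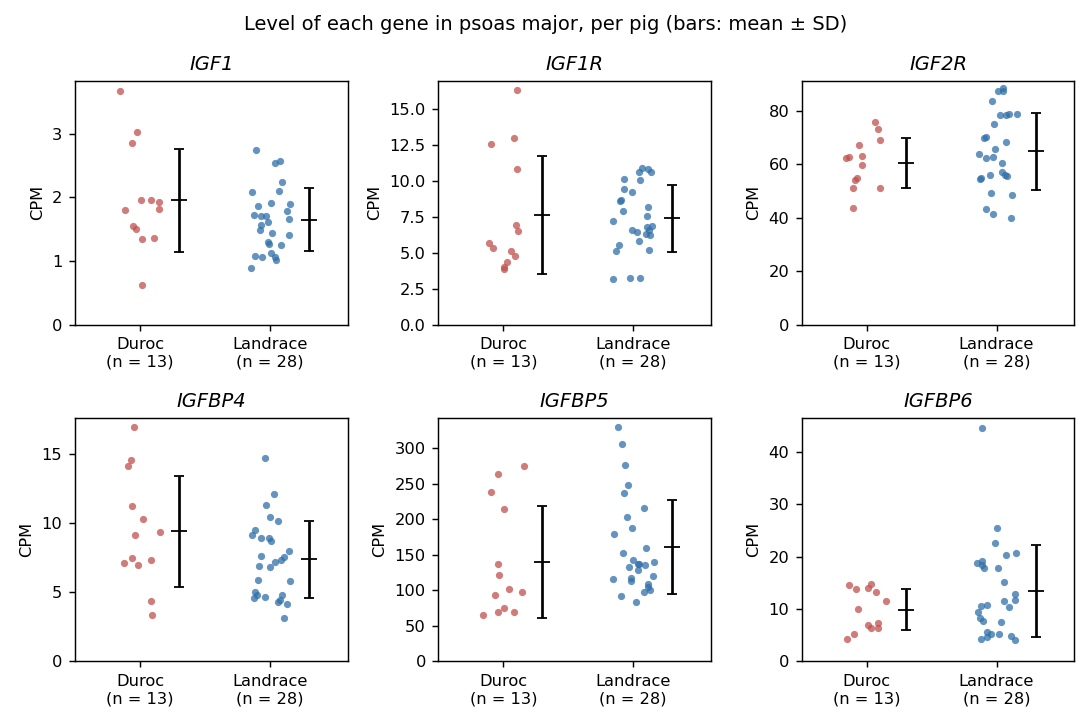
Level of each gene in CPM (vertical axes, from 0) in every pig, with the breeds side by side and the mean ± SD beside the points. The breeds overlap in all 6 panels, and the mean of IGFBP4 is 9.39 CPM in Duroc and 7.38 CPM in Landrace.

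The question of breed was addressed in a joint model with RIN, age, breed, FCR and batch, tested with the quasi-likelihood test of edgeR and a Benjamini-Hochberg false discovery rate (FDR) threshold of 0.1. Relative to Duroc, Landrace pigs had a lower IGF1 and a lower IGFBP4, and the other 4 genes did not pass the threshold. The adjusted log2 difference was -0.78 for IGF1 (SE 0.198, 0.584 of the Duroc level, FDR = 0.0042) and -1.04 for IGFBP4 (SE 0.262, 0.486 of the Duroc level, FDR = 0.00388). Breed was called for 33.1% of all genes tested and lower in Landrace for 17.5%, so 2 of 6 genes is near the share of the whole table. IGF2R had a difference of 0.21 (95% interval -0.02 to 0.45, FDR = 0.176) and IGF1R one of 0.29 (-0.18 to 0.76, FDR = 0.387). The intervals ran from -0.61 to 0.37 for IGFBP5 (estimate -0.12, FDR = 0.761) and from -1.19 to 0.21 for IGFBP6 (estimate -0.49, FDR = 0.311).

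The difference of IGF1 and IGFBP4 was an adjusted one. With age left out it was -0.49 for IGF1 and -0.73 for IGFBP4, and with batch left out -0.50 and -0.65, and both genes were called in each fit. Without any covariate, the difference in mean log2 CPM, Landrace minus Duroc, was -0.18 for IGF1 and -0.31 for IGFBP4, and 19 and 21 of the 28 Landrace pigs lay below the Duroc median. With breed as the only term in the model, neither gene passed the threshold (log2 difference -0.24, FDR = 0.351 for IGF1 and -0.35, FDR = 0.209 for IGFBP4). Within the slaughter batches that held both breeds, the unadjusted log2 difference of IGF1 was -0.07 in batch 2 (3 Duroc, 12 Landrace), 0.0066 in batch 3 (2 and 7), -0.07 in batch 4 (3 and 2) and -0.87 in batch 5 (4 and 7). For IGFBP4 it was -0.16, -0.31, -0.73 and -0.78 in the same order. IGFBP4 was thus lower in Landrace in all 4 batches, while the difference of IGF1 was wide only in batch 5.

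In batch 5, IGF1 was 2.85, 3.02, 3.67 and 1.96 CPM in the 4 Duroc pigs and ran from 1.01 to 2.55 CPM in the 7 Landrace pigs. IGFBP4 was 14.1, 14.5, 9.37 and 7.31 CPM in these Duroc pigs, and 4.26 to 14.7 CPM in the Landrace pigs. The highest Landrace pig was replicate 22 for both genes. Without the 11 pigs of batch 5, neither gene passed the threshold, with a log2 difference of -0.30 for IGF1 (FDR = 0.513) and -0.85 for IGFBP4 (FDR = 0.13). Leaving out any 1 of the 41 pigs kept both calls, with differences of -0.90 to -0.70 for IGF1 and -1.20 to -0.92 for IGFBP4. Without Landrace replicate 22 they were -0.78 and -1.07.

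Markers of other cell types moved with breed. Of the 4 endothelial markers tested of 6 listed, all 4 were lower in Landrace, with adjusted log2 differences of -1.48 for KDR, -1.01 for PECAM1, -0.95 for CDH5 and -0.69 for TEK. Their summed level ran from 53.6 to 160 CPM in Duroc (median 123) and from 29.0 to 136 CPM in Landrace (median 85.6). In the same model 3 of 4 smooth muscle and pericyte markers, 2 of 3 satellite cell markers and 2 of 6 fibroblast markers were lower in Landrace. So were 1 of 2 tested adipocyte markers (ADIPOQ, -2.67), 1 of 6 leukocyte markers (CSF1R, -0.92) and the 1 tested hepatocyte marker, APOA1. The other adipocyte marker, FABP4, was not called (0.25). All 3 tested muscle fibre markers were higher. Over all genes, 17.5% were called lower in Landrace. With the endothelial marker level as a further term, the difference was -0.36 for IGF1 (FDR = 0.413) and -0.38 for IGFBP4 (FDR = 0.493), and the number of genes called for breed over the whole table fell from 3692 to 1211. With the fibroblast marker level as the further term, both genes were still called (-0.63 and -0.70). In bulk muscle, fewer cells of a type and less RNA per cell cannot be told apart, and the part of these cells in the breed differences was not tested beyond these fits.

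**Figure D2:**
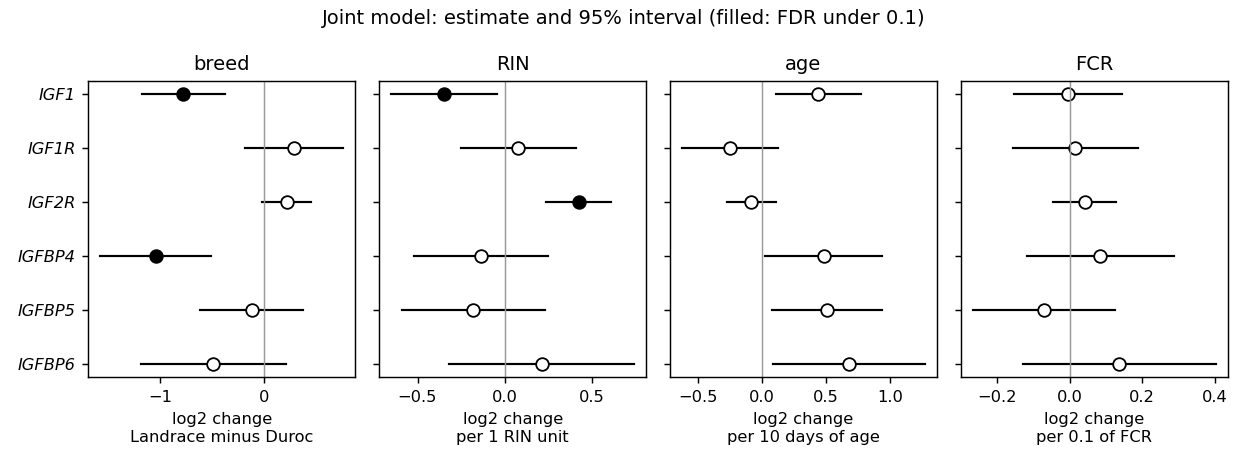
Estimates of the joint model for each gene (rows) as log2 changes with their 95% intervals, for breed, RIN, age and FCR (panels, each with its own horizontal scale). Filled points have an FDR under 0.1: IGF1 and IGFBP4 for breed, and IGF1 and IGF2R for RIN.

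RNA integrity was the largest term for IGF2R. IGF2R was 0.42 log2 higher per RIN unit (SE 0.0913, 1.34 times per unit, FDR = 2.66e-04). RIN alone accounted for 30.6% of its variance in log2 CPM beyond the other terms, against at most 8.55% in the other 5 genes. The slope was 0.49 within Landrace (SE 0.111, FDR = 0.00146) and 0.44 within Duroc (SE 0.168), where it did not pass the threshold (FDR = 0.248). In that Duroc fit edgeR called no gene of the table, 1824 of 10509 genes had an unadjusted p under 0.05, and DESeq2 called 362 genes without IGF2R (FDR = 0.335). With breed as a covariate it was 0.50 in batch 2, 0.34 in batch 3 and 0.42 in batch 5. The call was kept in all 41 refits without 1 pig and in all 12 other settings, with slopes of 0.32 to 0.74. Without the 2 pigs under RIN 7 it also remained a call. The fibroblast markers PDGFRA (1.62), LUM (1.06) and COL3A1 (0.93) rose with RIN, 3 of 6 on that list, and the muscle fibre marker TNNT3 fell (-0.50), 1 of 3 tested. Of the smooth muscle and pericyte markers 1 of 4 fell, and of the leukocyte markers 1 of 6. RIN was called for 51.8% of all genes, so these counts are no larger than that share. None of the 4 endothelial markers was called for RIN. With the fibroblast or the endothelial marker level added, the slope of IGF2R was 0.43 in each fit.

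IGF1 changed by -0.35 log2 per RIN unit (SE 0.150, FDR = 0.0582), a call that depended on few pigs. It was kept in 34 of the 41 refits and was lost without Duroc replicates 10 or 11 or Landrace replicates 1, 8, 20, 22 or 28, with slopes of -0.25 to -0.34 and FDR values up to 0.194. With library size in place of TMM the slope was -0.04 (FDR = 0.843), where the median of all genes was 0.30, and without batch 5 it was -0.10 (FDR = 0.755). The call was also lost without the 2 pigs under RIN 7 (-0.34, FDR = 0.246), without a filter (-0.28, FDR = 0.175) and with age left out (-0.29, FDR = 0.141). The slopes of IGF1R (0.08), IGFBP4 (-0.14), IGFBP5 (-0.18) and IGFBP6 (0.21) had FDR values of 0.494 to 0.72. They were uneven over the settings. IGF1R was called with library size in place of TMM (0.39, FDR = 0.0394, against the median of 0.30) and without the 2 pigs under RIN 7 (0.49). With batch left out IGFBP5 (-0.41, FDR = 0.06) and IGFBP6 (0.61, FDR = 0.0513) were called, and IGFBP5 also with batch as a number (-0.43, FDR = 0.0849). IGFBP4 was called with the fibroblast marker level added (-0.28, FDR = 0.097). Since RIN was called for 51.8% of all genes tested, 2 of 6 genes is below the share of the whole table.

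**Figure D3:**
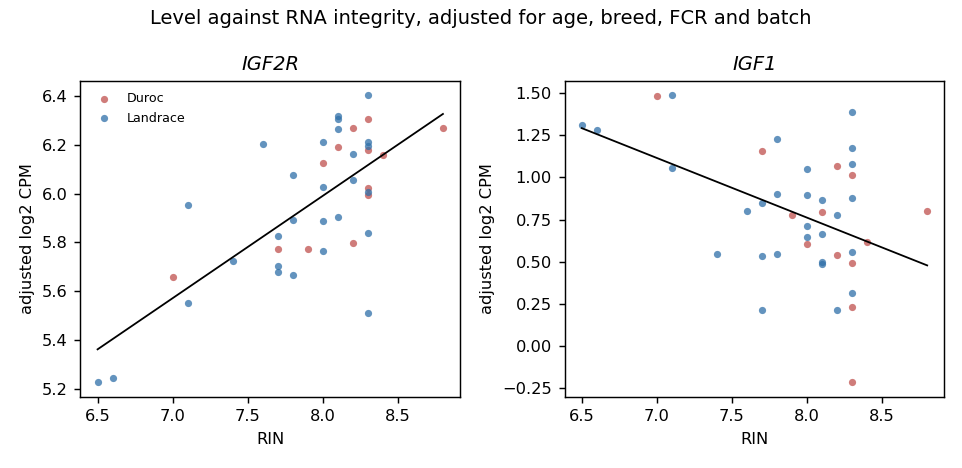
Level of IGF2R and IGF1 as adjusted log2 CPM (vertical axes) against RIN (horizontal axes) in each pig, after removing age, breed, FCR and batch, with the fitted line. The line rises by 0.42 per RIN unit for IGF2R in the joint edgeR model and falls for IGF1.

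None of the 6 genes passed the threshold for age, for which 1.76% of all genes were called. In 4 genes the slope was positive with an unadjusted p under 0.05, which held for 8.6% of all genes. Per 10 days the log2 slope was 0.44 for IGF1 (95% interval 0.11 to 0.78, FDR = 0.183), 0.48 for IGFBP4 (0.02 to 0.94, FDR = 0.285), 0.51 for IGFBP5 (0.08 to 0.94, FDR = 0.223) and 0.68 for IGFBP6 (0.09 to 1.27, FDR = 0.235). Those of IGF1R and IGF2R were -0.25 and -0.08. The youngest pig, Duroc replicate 13 at 131 days, had 1.55 CPM of IGF1, 4.36 CPM of IGFBP4, 65.8 CPM of IGFBP5 and 5.27 CPM of IGFBP6, each under the Duroc median. Without it, the unadjusted p was under 0.05 for IGF1 alone (0.0248), and the slope of IGFBP4 was 0.31.

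The age slopes were uneven between the breeds. Within Landrace they were 0.47 for IGF1, 0.49 for IGFBP4, 0.24 for IGFBP5 and 0.79 for IGFBP6, and within Duroc 0.05, 0.46, 0.73 and 0.04 in the same order, and none passed the threshold in either breed. The difference of these slopes between the breeds was not tested. The endothelial markers KDR and CDH5 rose with age (0.72, FDR = 0.0693 and 0.45, FDR = 0.0965). With the endothelial marker level as a further term, the slope was 0.22 for IGF1, 0.17 for IGFBP4, 0.52 for IGFBP5 and 0.45 for IGFBP6.

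FCR, the main question of the study, was not related to any of the 6 genes at the threshold, at which the edgeR fit called 0% of all genes. None of the 6 had an unadjusted p under 0.05 either, where 8.68% of all genes did. Per 0.1 of FCR, the log2 slope of IGF1 was -0.0049 (95% interval -0.15 to 0.14, p = 0.947) and that of IGF1R 0.016 (-0.16 to 0.19, p = 0.853). IGF2R had the narrowest interval, -0.05 to 0.13 around 0.041 (p = 0.34), and its slope was 0.0070 without Landrace replicate 24. The binding proteins had slopes of 0.085 for IGFBP4 (-0.12 to 0.29), -0.070 for IGFBP5 (-0.27 to 0.13) and 0.14 for IGFBP6 (-0.13 to 0.40, FDR = 0.762), and each interval included changes in either direction.

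Levels at the ends of the FCR scale differed between genes. Duroc replicate 11, with the lowest FCR of 1.83, had 1.96 CPM of IGF1, 4.78 CPM of IGF1R and 59.8 CPM of IGF2R. Landrace replicate 24, with the highest FCR of 2.25, had 0.887 CPM of IGF1, 10.6 CPM of IGF1R and 87.2 CPM of IGF2R. These pigs also differed in breed and slaughter batch, which the model takes into account. DESeq2 and limma with voom called none of the 6 genes for FCR, nor did any other setting or refit, while DESeq2 called 5 genes over the whole table.

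**Figure D4:**
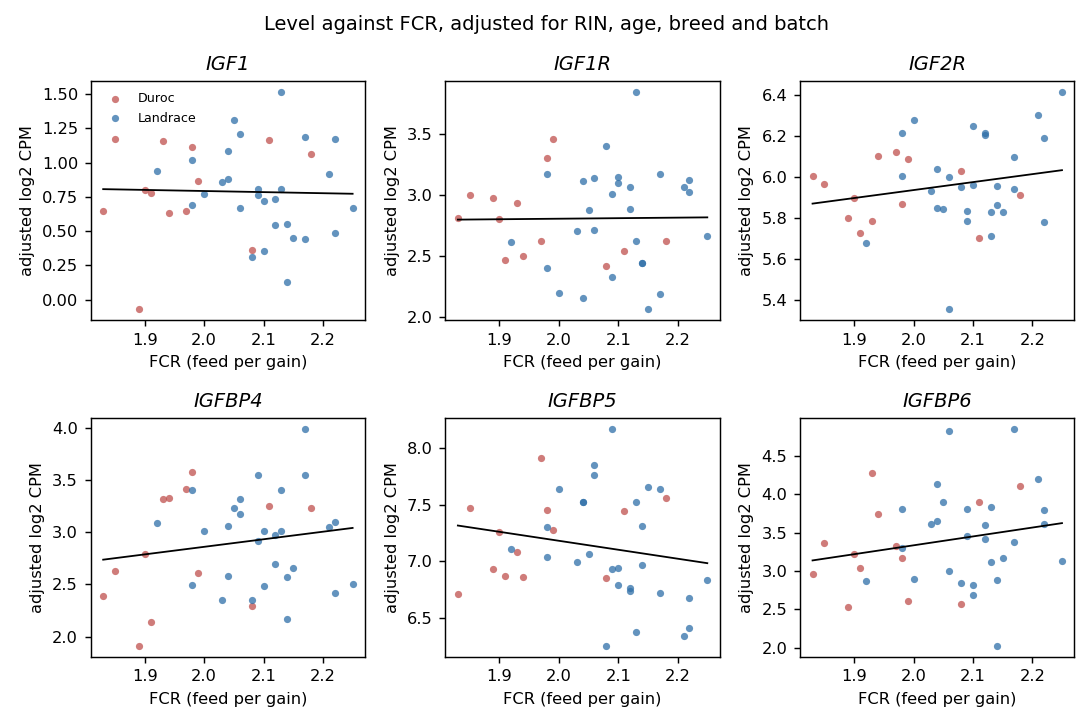
Level of each gene as adjusted log2 CPM (vertical axes) against FCR (horizontal axes) in each pig, after removing RIN, age, breed and batch, with the fitted line. The points scatter widely around the lines, which come from a linear fit of log2 CPM and not from edgeR. In the joint edgeR model the slopes run from -0.070 for IGFBP5 to 0.14 for IGFBP6 per 0.1 of FCR, and no slope passed the threshold.

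Within the breeds, the FCR slopes of IGFBP5 had opposite signs, -0.20 in Landrace (SE 0.134, p = 0.148) and 0.16 in Duroc (SE 0.136, p = 0.273). The FCR by breed term of IGFBP5 was -0.39 (SE 0.185, p = 0.0417), which did not pass the threshold (FDR = 0.922). Over all genes this term was called for 0% by edgeR, for 1 gene by DESeq2, and had an unadjusted p under 0.05 for 5.22%. The other 5 genes had p values of 0.264 to 0.631 for it. IGFBP6 had the steepest estimate within Duroc, 0.32 (SE 0.191, p = 0.127), in a fit of 13 pigs with few residual degrees of freedom.

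Slaughter batch was called for 3 of the 6 genes, IGF1R (FDR = 0.0215), IGF1 (FDR = 0.0402) and IGFBP6 (FDR = 0.0405), and for 24.1% of all genes. Of the tested markers, it was called for 3 of 4 endothelial, 4 of 6 leukocyte, 2 of 3 muscle fibre, 1 of 6 fibroblast and 1 of 1 hepatocyte markers. None of the 4 smooth muscle and pericyte, 3 satellite cell and 2 adipocyte markers was called for batch. IGF1R had a median of 12.6 CPM in the 5 pigs of batch 4, against 8.61 CPM in batch 2, 6.33 CPM in batch 3 and 4.78 CPM in batch 5. The 5 pigs of batch 4 ran from 7.54 to 16.3 CPM, the 11 pigs of batch 5 from 3.16 to 10.1 CPM. IGF1 showed the opposite order of these batches, with a median of 1.12 CPM in batch 4 and 1.96 CPM in batch 5. All 5 pigs of batch 4 had at most 1.36 CPM of IGF1.

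IGFBP6 had medians of 7.36 and 6.33 CPM in batches 4 and 5, below the 11.8 and 15.3 CPM of batches 2 and 3. IGFBP5 was highest in batch 5, with a median of 239 CPM against 83.8 to 141 CPM in batches 2 to 4, although its batch term did not pass the threshold (FDR = 0.113). IGFBP4 (FDR = 0.134) and IGF2R (FDR = 0.426) were not called either. The call of IGF1R was kept in all refits and settings that had a batch term. That of IGF1 was lost without Landrace replicate 24 (FDR = 0.131), and those of IGF1 and IGFBP6 were lost with age left out (FDR = 0.115 and 0.12) and with the endothelial marker level added. The call of IGF1 was also lost with the fibroblast marker level added (FDR = 0.155) and that of IGFBP6 without batch 5 (FDR = 0.234). A slaughter day differs from another in the pigs and in their handling, which cannot be told apart here.

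**Figure D5:**
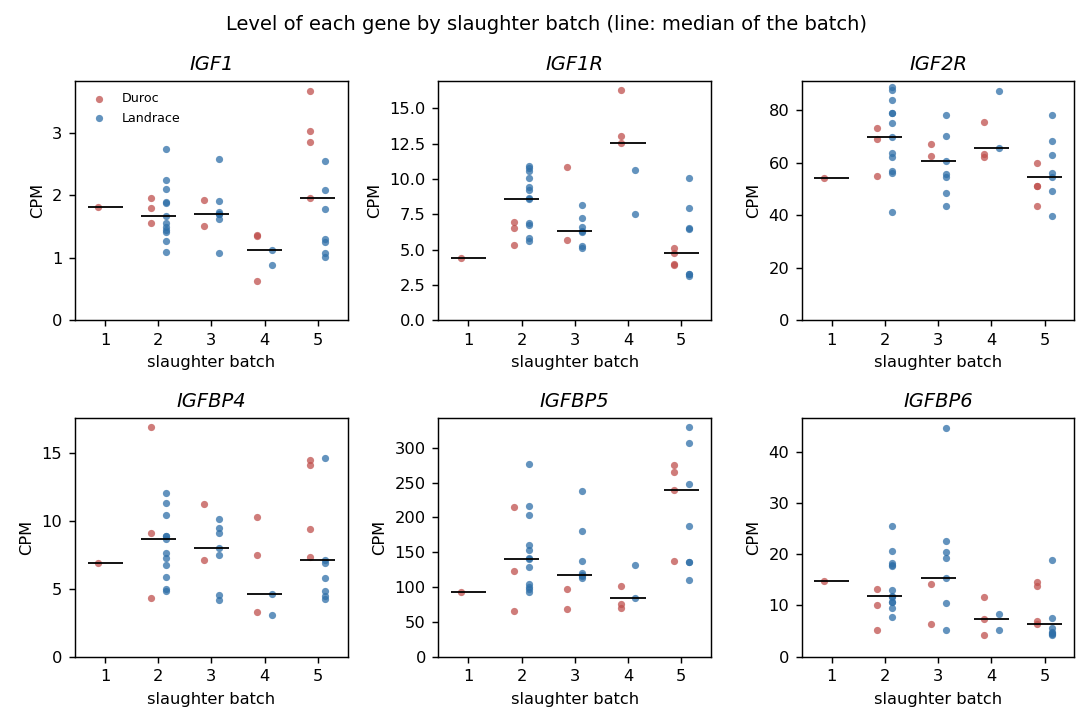
Level of each gene in CPM (vertical axes, from 0) by slaughter batch (horizontal axes), with a point for each pig, coloured by breed, and a line at the median of the batch. IGF1R is highest in batch 4, where IGF1 is lowest, and IGFBP5 is highest in batch 5.

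The 6 genes did not move as 1 unit across the pigs. After removing RIN, age, breed, FCR and batch, the log2 CPM of IGF1 went with that of IGFBP4 (Pearson's r = 0.64 over the 41 pigs) and of IGFBP6 (0.57), and IGFBP4 went with IGFBP6 (0.61). IGF1R went against IGFBP5 (-0.49), and had values of -0.08 with IGF1 and 0.11 with IGF2R. Before that removal, the values of IGF1R were -0.61 with IGFBP5, -0.41 with IGF1 and 0.40 with IGF2R. These values describe pairs in the same libraries, which share depth and cell makeup, and carry no test.

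The genes whose adjusted pattern was most like that of IGF1 were SFXN3 (r = 0.77), NIBAN1 (0.76) and CSPG4 (0.76), the last of them a proteoglycan known from pericytes. For IGFBP4 they were HK1, SCARA3 and NIBAN2 (0.82 to 0.83). For IGFBP6 they were ADAMTS2, a procollagen protease, FSTL1 and the collagen receptor MRC2 (0.87 to 0.89). IGF1R was most like FRG1, RBM22 and WIPF3 (0.78 to 0.84), IGF2R like the histone deacetylase HDAC4, GTPBP2 and TMEM201 (0.70 to 0.76), and IGFBP5 like NKD1, ACCS and SMC1A (0.68 to 0.73).

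Other genes of the IGF axis were counted from a list of 37, of which 32 were matched and 25 tested. For breed, 8 of the 25 were called, 5 higher and 3 lower in Landrace, with a median log2 difference of 0.09 against -0.0024 over all genes. Breed was called for 33.1% of all genes, so 8 of 25 is near the share of the whole table. The 3 lower genes were IGFBP2 (-1.02, FDR = 0.0101), IGFBP7, a secreted protein of vessel walls that binds IGFs weakly (-0.81, FDR = 3.35e-04), and ADAM12, a metalloprotease that cleaves IGF binding proteins (-1.54, FDR = 3.17e-04). Both binding proteins tested on this list were lower, and 1 of 4 tested proteases and inhibitors. The mean level of IGFBP2 was 4.13 ± 1.88 CPM in the Duroc pigs (SD, n = 13), against 3.01 ± 1.09 CPM in the Landrace pigs (SD, n = 28). The calls of IGFBP2, IGFBP7 and ADAM12 were kept in all 41 refits and were lost with the endothelial marker level added (-0.25, -0.22 and -0.84). Those of IGFBP2 and ADAM12 were also lost without batch 5 (-0.83, FDR = 0.148 and -0.90, FDR = 0.119) and with breed as the only term (-0.45 and -0.56).

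The 5 genes that were higher in Landrace code for signal proteins inside the cell. Of 6 tested genes of growth hormone input, STAT5A (0.51, FDR = 0.00509) and STAT5B (0.44, FDR = 7.35e-04), the transcription factors that carry the growth hormone signal, were called. The mean level of STAT5B was 96.6 ± 9.46 CPM in the Duroc pigs (SD, n = 13), against 115 ± 19.2 CPM in the Landrace pigs (SD, n = 28), and both STAT5 genes were also called with breed as the only term and without batch 5. Their calls were lost with the endothelial marker level added, at differences of 0.31 (FDR = 0.278) and 0.26 (FDR = 0.137). Of 6 receptor and adaptor genes, GAB1 (0.62, FDR = 0.0273) and the inhibitory adaptor GRB10 (0.40, FDR = 0.0989) were called, and of 5 PI3K and AKT genes PIK3CA (0.24, FDR = 0.0684). GRB10 was called in 23 of the 41 refits and PIK3CA in 36, where leaving out Duroc replicates 1, 3, 5 or 10 or Landrace replicate 10 ended the latter. With the endothelial marker level added these 3 genes did not pass the threshold, at a difference of 0.64 for GAB1 (FDR = 0.159) and 0.32 for PIK3CA (FDR = 0.12), which are no smaller than in the joint model, and 0.15 for GRB10 (FDR = 0.746). Without batch 5 the differences were 0.48, 0.25 and 0.18 in the same order, and with breed as the only term 0.31, 0.12 and -0.04, none of them called. With library size in place of TMM, where the median of all genes was -0.18, they were 0.45, 0.06 and 0.23 and were not called. PIK3CA was also not called with age left out (0.16, FDR = 0.195), and GRB10 was called in 3 of 13 settings.

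RIN was called for 10 of the 25 axis genes, 8 of them higher with RIN, below the 51.8% called over all genes. GHR, the growth hormone receptor, rose by 0.68 log2 per RIN unit (FDR = 2.84e-04), GAB1 by 1.07 (FDR = 1.16e-05), IRS2 by 0.58 (FDR = 0.00895) and PIK3CA by 0.48 (FDR = 6.45e-06). JAK2, IRS1, PIK3CB and PDPK1 also rose, and IGFALS (-0.72, FDR = 0.0018) and the protease HTRA1 (-0.22, FDR = 0.0489) fell. The calls of IRS1 and PDPK1 were lost without Landrace replicate 1, the pig with the lowest RIN, and that of HTRA1 was lost in 7 refits (FDR up to 0.467). Without both pigs under RIN 7, JAK2 (0.25, FDR = 0.212), IRS1 (0.22, FDR = 0.268), PDPK1 (0.10, FDR = 0.229) and HTRA1 (-0.16, FDR = 0.376) were not called. Without batch 5, IGFALS (-0.47, FDR = 0.14), IRS2 (0.41, FDR = 0.157) and HTRA1 (-0.22, FDR = 0.19) were not called, with the slope of HTRA1 as in the joint model. That of IRS1 was lost with batch left out (0.09, FDR = 0.585) or as a number (0.18, FDR = 0.263). HTRA1 was not called without a filter (-0.16, FDR = 0.234), and with library size in place of TMM its slope was 0.08 (FDR = 0.527), below the median of all genes of 0.30 under that scaling. The calls of GHR, GAB1, PIK3CA and PIK3CB were kept in all settings, as that of IGF2R was.

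For age, 3 of the 25 were called, where 1.76% of all genes were. IGFBP7 (0.54 per 10 days, FDR = 0.0599) and ADAM12 (0.94, FDR = 0.0762) rose and GRB10 (-0.47, FDR = 0.0995) fell. The call was kept in 38 of the 41 refits for IGFBP7, in 33 for ADAM12 and in 15 for GRB10, and each was lost without Duroc replicate 13. Without a filter ADAM12 (FDR = 0.108) and GRB10 (FDR = 0.129) were not called, and with limma GRB10 was not (FDR = 0.11). All 3 calls were also lost with batch left out, at slopes of 0.22 for IGFBP7, 0.46 for ADAM12 and -0.34 for GRB10, and with the endothelial marker level added, at 0.25, 0.64 and -0.35. With the fibroblast marker level added the slopes were 0.45, 0.65 and -0.44, without batch 5 they were 0.44, 0.79 and -0.52, and with library size in place of TMM 0.61, 0.99 and -0.41, again without a call. For FCR none was called, and PIK3CA alone had an unadjusted p under 0.05 (0.09 per 0.1 of FCR, SE 0.0363, p = 0.0175, FDR = 0.535). That is 1 of 25, below the 8.68% of all genes with such a p. The next smallest p values were those of STAT5A (-0.10, p = 0.0554) and of the insulin receptor INSR (0.12, p = 0.0889).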

How the data were processed

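The deposited values are whole counts of read pairs per Ensembl gene, not normalized or filtered. RNA from the psoas major of 41 pigs was sequenced by the authors as unstranded 100-base paired reads (BGISEQ-500), trimmed with Trimmomatic 0.39 and aligned to Sscrofa11.1 with STAR 2.7.1a, which also counted pairs per gene. Pairs on overlapping genes or on more than 1 place were not counted, so near-identical genes can lose counts. The unstranded counts were used here. Breed, RIN, age, FCR and batch came from the labels.

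Counts were fitted in R 4.3.3 with edgeR 4.0.16 (quasi-likelihood test, legacy form, TMM, filterByExpr with a minimum count of 10), in a model of RIN, age, breed, FCR and batch as a factor of 5 levels, over 11146 genes from 22188911 to 25954816 counts per pig. Among the matched genes of the IGF system, counting error is largest for IGF1, at 16 to 83 counts per pig. Some genes of the axis list reached lower counts, such as IGFALS (7 to 61 per pig) and ADAM12 (13 to 140). FDR is the Benjamini-Hochberg value over all genes tested, with a threshold of 0.1, and tests were two-sided. The replicates are separate pigs, and the SE was derived from the F statistic. FCR within each breed and an FCR by breed term were fitted likewise. CPM are TMM-scaled, and log2 CPM had a prior count of 2. DESeq2 1.42.0 (minimum count of 5 per pig) and limma 3.58.1 with voom, other scaling, filters, covariates and pigs were the alternatives. The endothelial and fibroblast marker terms, breed as the only term and the fit without batch 5 were chosen after seeing the data. The scripts were tested on simulated data. Plots were drawn with matplotlib 3.10.9.

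The genes, the axis list and the marker lists were chosen with earlier results of these data known. All 8 genes are described. An axis gene was to be named where it was called for breed or had 1 of the 3 smallest p values for FCR, and those named for RIN or age were added after their values were seen. The 3 genes with the highest adjusted correlation were named for each gene. Gene names and coordinates came from Ensembl and RefSeq tables, and sequences were not analysed here.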

Additional observations from a re-analysis of the deposited data

How the results depend on the processing

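The number of the 6 genes called was unchanged by the choice of tool for breed (2), RIN (2), age (0) and FCR (0), and for batch it was 3 with edgeR, 5 with DESeq2 and 5 with library size only. For breed, no gene of the 6 was called with breed as the only term (0), without batch 5 (0) or with the endothelial marker level added (0), and 2209, 1608 and 1211 of all genes were, against 3692. With batch left out 2434 genes were called for breed. For RIN, 1 of the 6 was called without a filter, with age left out and without batch 5, and 4 with batch left out. Without batch 5, 3825 genes were called for RIN. For age, 2 of the 6 were called with batch as a number, and the count of all genes was 545 with DESeq2, 45 with library size only, 99 without a filter, 814 with batch as a number, 43 with the fibroblast marker level added and 0 with batch left out, with the endothelial marker level added and without batch 5, against 196. DESeq2 called 5 genes for FCR, 1 for the FCR by breed term, 4 for FCR within Landrace and 10 within Duroc, where edgeR called 0 in each. For batch, 1 of the 6 was called with age left out and with the endothelial marker level added, and 1773 and 957 of all genes were, with 1479 without batch 5, against 2686. The cause of these differences was not tested.

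Leaving out 1 pig at a time gave 1 to 2 of the 6 genes called for RIN, 2 to 3 for breed, 0 to 1 for age and 2 to 5 for batch, and over all genes 0 (without Duroc replicate 13) to 484 for age, 1528 to 3254 for batch, and 0 to 1 for FCR and for the FCR by breed term. IGF2R was called for breed without Landrace replicate 18 (0.27), IGF1 for age without Duroc replicate 12 (0.49), and 5 of the 6 for batch without Duroc replicate 2. Duroc replicate 2 was the only pig of batch 1, so that refit tested batch with a level fewer and is unlike the other refits.

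Among the 6 genes, no call changed sign, and the following estimates that were not called did. For breed, IGFBP5 was 0.17 with age left out, 0.042 with the fibroblast marker level added, 0.13 without batch 5 and 0.20 with breed as the only term, and -0.22 to 0.016 without 1 pig. IGFBP6 was 0.20 with batch left out, 0.046 with the endothelial marker level added, 0.065 without batch 5 and 0.44 with breed as the only term, where IGF1R was -0.048. For RIN, IGFBP4 was 0.15 with library size only, 0.16 without the 2 pigs under RIN 7 and 0.015 without batch 5, and -0.20 to 0.11 without 1 pig. IGFBP5 was 0.11 with library size only and IGFBP6 -0.041 with the fibroblast marker level added. For FCR, IGF1 was 0.0043 with limma, 0.060 with library size only, 0.0046 without a filter, 0.063 with age left out and 0.021 with batch left out, and -0.030 to 0.036 without 1 pig. IGF1R was -0.021 with age left out and -0.012 to 0.043 without 1 pig. IGFBP5 was 0.0038 with age left out, and IGFBP4 and IGFBP6 were -0.040 and -0.028 without batch 5.

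With library size only, the median of all genes moved to -0.18 for breed and 0.30 for RIN, and the share of breed calls that were higher in Landrace fell from 47.0% to 12.9%, and of RIN calls that rose went from 46.2% to 87.6%. The slope of IGF1 with RIN, -0.04, lay below that median. No paired analysis was possible because the replicate numbers only name the pigs. Breed, age, FCR and slaughter batch were partly bound together, with 1 to 4 Duroc pigs in each batch, which limits how far these terms can be told apart.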
